A study of Mus musculus with 6 samples.

Results

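The proteasome genes of mouse embryonic stem (ES) cells, which encode the subunits, activators and assembly factors of the proteasome, were compared between cells with a knockout (KO) of Alkbh1 and wild-type (WT) cells. Members were taken by gene symbol, as genes of the Psma to Psmg families together with Pomp, and 50 of the 14095 genes that the authors tested were found. One further match, Psme2b, was not tested by the authors. Of the 50, Psmc3ip matched by its symbol alone: it encodes a partner of meiotic recombinases and no proteasome part, so it is kept apart from the classes below. The KO cells carried the Alkbh1 knockout in the TT2 line, from 2 clones with 2 libraries each, and the WT cells were wild-type TT2 with 2 libraries. All cells were of C57BL6 x CBA background, were used at passage 5 and grew without feeder cells. Polyadenylated RNA was sequenced, and the authors deposited 1 FPKM value per condition (fragments per kilobase of transcript, scaled to mapped fragments) with their own log2 fold change of KO over WT, p-value and q-value. No library has a value of its own, so levels are given without an SD, the 2 clones are not compared, the depth is unknown, and an effect of the genotype cannot be told apart from differences between cell clones. The labels do not say whether libraries came from separate cultures, so the q-values may rest on technical spread.

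The proteasome degrades proteins tagged with ubiquitin. Its barrel, the 20S core, is a stack of rings of alpha subunits, which form the gates, and of beta subunits, of which a few cut peptide bonds. The 19S cap on the barrel's ends holds a ring of ATPases that unfold substrates and a set of non-ATPase subunits that bind and remove ubiquitin. Other activators can replace the cap, and dedicated chaperones assist assembly. Human ES cells are known for high proteasome activity. In cells exposed to interferon gamma, 3 inducible catalytic subunits, encoded by Psmb8, Psmb9 and Psmb10, replace the constitutive ones of Psmb5, Psmb6 and Psmb7, which forms the immunoproteasome.

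The sequences before 5 of the 6 catalytic genes are shown first, because their calls differed in direction: the constitutive genes and Psmb10 were called lower in KO, Psmb9 was called higher and Psmb8 was not called. Each run is the 250 bases before the annotated start, 5′ to 3′ on the gene's strand, from RefSeq on GRCm38.p6. The runs lie at chr8:105938393-105938642 (minus strand) for Psmb10, chr17:34187331-34187580 (minus) for Psmb9, chr17:34197945-34198194 (plus) for Psmb8, chr14:54617996-54618245 (minus) for Psmb5 and chr11:70525107-70525356 (plus) for Psmb6. Capitals mark matches to 4 searched motifs, described further on.
Psmb10: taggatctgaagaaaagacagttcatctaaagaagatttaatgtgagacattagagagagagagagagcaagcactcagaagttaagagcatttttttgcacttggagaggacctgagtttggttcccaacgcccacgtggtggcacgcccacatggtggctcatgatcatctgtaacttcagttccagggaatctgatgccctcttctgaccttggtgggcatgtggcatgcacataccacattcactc
Psmb9: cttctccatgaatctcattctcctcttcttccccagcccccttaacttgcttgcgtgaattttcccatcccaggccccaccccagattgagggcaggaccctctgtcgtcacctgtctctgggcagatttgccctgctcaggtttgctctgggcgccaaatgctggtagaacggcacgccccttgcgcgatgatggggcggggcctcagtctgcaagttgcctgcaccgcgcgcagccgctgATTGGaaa
Psmb8: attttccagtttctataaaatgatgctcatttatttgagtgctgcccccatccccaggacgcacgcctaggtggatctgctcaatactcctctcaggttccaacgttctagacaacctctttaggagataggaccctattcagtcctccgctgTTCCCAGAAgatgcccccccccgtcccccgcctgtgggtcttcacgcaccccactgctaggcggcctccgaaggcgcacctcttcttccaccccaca
Psmb5: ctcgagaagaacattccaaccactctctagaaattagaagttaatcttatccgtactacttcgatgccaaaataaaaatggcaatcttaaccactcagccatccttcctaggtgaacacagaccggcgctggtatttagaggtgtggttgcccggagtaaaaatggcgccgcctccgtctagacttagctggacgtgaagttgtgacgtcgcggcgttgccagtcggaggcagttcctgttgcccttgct
Psmb6: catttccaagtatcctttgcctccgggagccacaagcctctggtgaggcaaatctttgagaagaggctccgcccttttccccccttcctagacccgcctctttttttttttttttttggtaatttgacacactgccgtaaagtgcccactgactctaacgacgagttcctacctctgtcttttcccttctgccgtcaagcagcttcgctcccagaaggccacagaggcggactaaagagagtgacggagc

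As deposited, most proteasome genes were lower in KO cells. In the authors' deposited table, 43 of the 50 members were lower in KO at q under 0.05, 1 was higher (Psmb9) and 6 were not called (Psmb8, Psmb11, Psmd2, Psmd3, Psmd11 and Psme4). Over all tested genes, 28.4% were called lower, 22.4% higher and 50.8% in either direction. The members' median log2 fold change was -0.82 and that of all tested genes -0.06, from the authors' deposited table. A fall of at least 2-fold was called in 12 members, against 5.36% of all tested genes. The FPKM of the members summed to 7998 in KO and 14375 in WT, so that the KO sum was 55.6% of the WT sum, as computed from the authors' deposited table. As a share of the summed FPKM of all tested genes, which does not depend on the scaling between conditions, the members made up 1.28% in KO and 1.46% in WT.

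**Figure D1:**
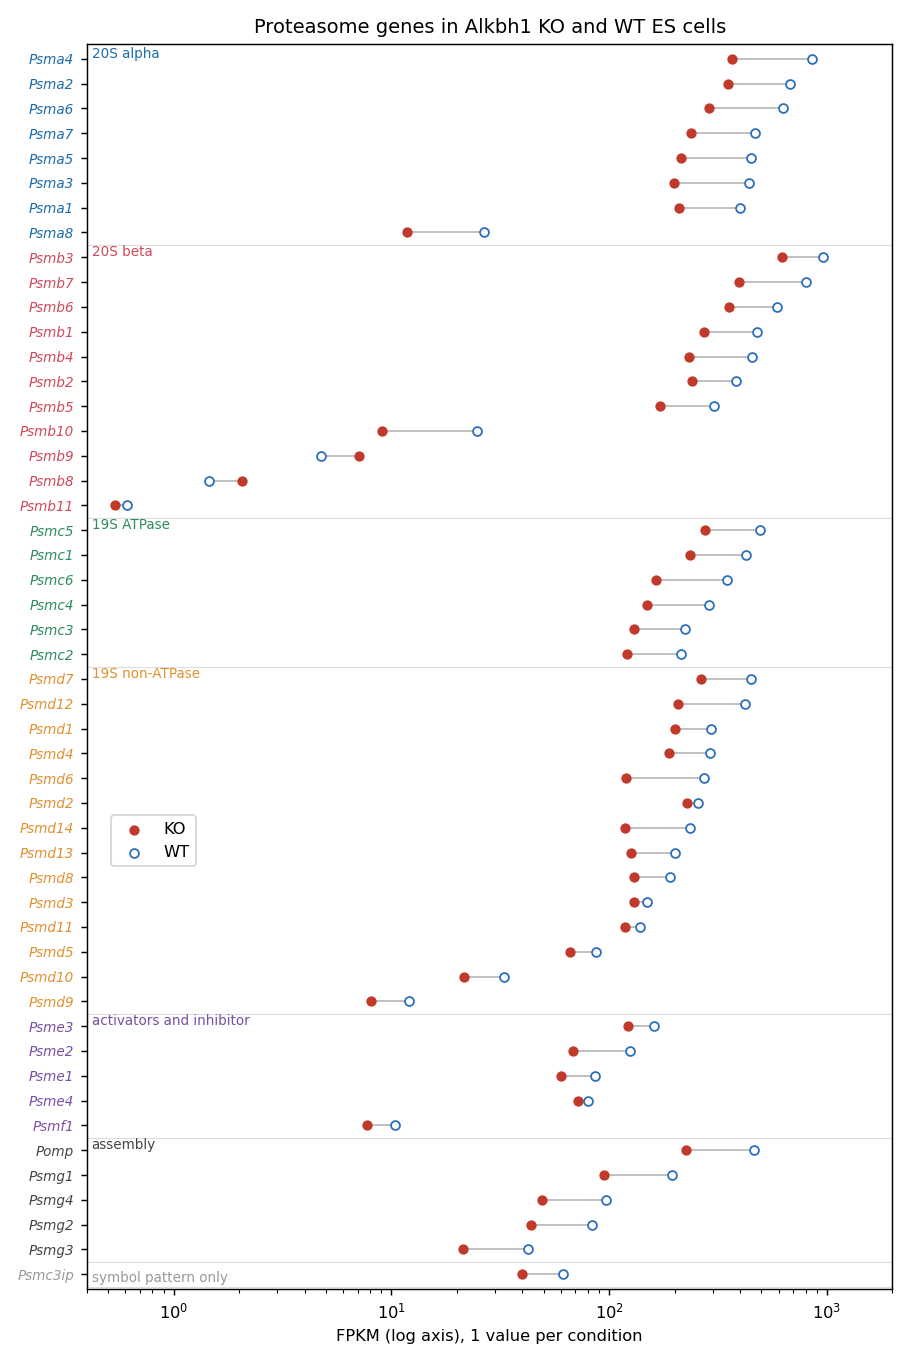
FPKM of the 50 proteasome genes on a log axis, 1 value per condition, with KO as filled and WT as open circles, grouped by class and ordered by WT level within a class. KO lies left of WT for 48 genes, and right of it for Psmb9 (7.13 FPKM in KO, 4.73 FPKM in WT) and Psmb8 (2.06 FPKM in KO, 1.45 FPKM in WT).

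Abundant genes as a whole were lower in KO, and 36 of the 50 members belong to the highest decile of tested genes by mean FPKM. That decile had a median log2 fold change of -0.72, and 76.6% of its 1410 genes were called lower in the authors' deposited table. Among the 36 members in it, 33 were called lower and 3 were not called, against 21.8% of the decile not called, and their median was -0.85. The share called lower is thus nearer to that of other abundant genes than to that of all genes. At least a 2-fold fall was called in 10 of these 36 members and in 268 of the decile's 1410 genes. Of the 36 members, 25 lay below the decile's median. Each of the 50 members was also set against the median of its own decile by level, and 36 lay below it and 14 above, with a median distance of -0.18. The FPKM of all tested genes summed in KO to 63.6% of the WT sum. Scaling both conditions to equal totals adds 0.65 to each log2 fold change. The members' median would then be -0.17 and that of all tested genes 0.59. In the highest decile the median would be -0.07 over all its genes and -0.20 over the members in it. With the deposited q-values kept, the 44 calls would split into 12 above and 32 below 0 instead of 1 and 43. What share of the members' fall follows the trend with level was not tested.

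**Figure D2:**
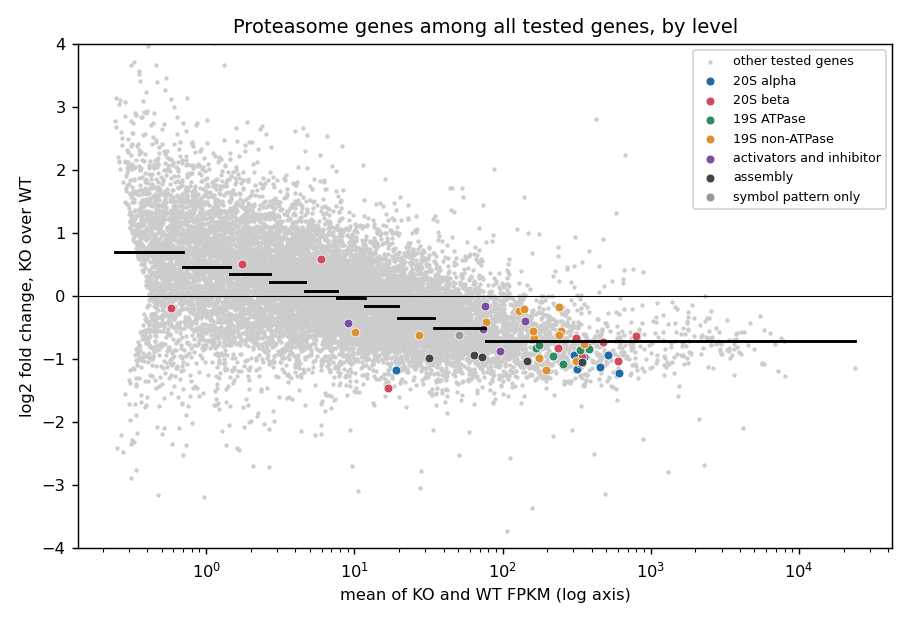
Log2 fold change of KO over WT against the mean of KO and WT FPKM (log axis) for all tested genes with a finite fold change (grey) and the proteasome genes (coloured by class), with black bars at the median of each decile by level. The bars step down from 0.69 in the lowest to -0.72 in the highest decile, where most proteasome genes lie; 7 genes lie beyond the vertical axis.

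The alpha subunits of the 20S core fell together. All 8 Psma genes were called lower in the authors' deposited table, with log2 fold changes from -1.22 to -0.93 and a median of -1.09, and 5 fell at least 2-fold. The share called lower was 28.4% over all tested genes, and 5.36% were called at least 2-fold lower. The highest decile by level holds all Psma genes but Psma8. There, 76.6% were called lower, and 268 of 1410 genes at least 2-fold lower. Psma4 fell furthest, to 366 FPKM in KO, against 851 FPKM in WT (log2 fold change -1.22, q = 0.000206 in the authors' deposited table). Psma4 and Psma3 each share their listed region with another gene, so their values are uncertain. Psma1 fell least, to 209.6 FPKM in KO, against 399.5 FPKM in WT (-0.93, q = 0.000206 in the authors' deposited table). Since 33 members share that smallest q, they cannot be ranked by it. The 7 alpha subunits of the common ring ranged from 198 to 366 FPKM in KO and from 399.5 to 851 FPKM in WT, with a coefficient of variation between genes of 26.2% in KO and 29.7% in WT. Psma8, known as a testis-specific relative of Psma7, had 11.8 FPKM in KO and 26.6 FPKM in WT (-1.17, q = 0.000206 in the authors' deposited table), which is 4.97% of the Psma7 level in KO and 5.69% in WT. All 8 alpha genes lay below the median of their own decile by level, and below 0 with equal totals (median -0.44).

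The constitutive beta subunits also fell, by less. In the authors' deposited table, all 7 of Psmb1 to Psmb7 were called lower, and their median was -0.81 (-0.16 with equal totals, where Psmb3 alone would stand above 0). These 7 lie in the highest decile by level, where 76.6% of genes were called lower and the median was -0.72. The share called lower over all tested genes was 28.4%. Psmb7, which encodes the subunit with trypsin-like activity, fell to 394 FPKM in KO, against 806 FPKM in WT (-1.03, q = 0.000206 in the authors' deposited table). Psmb5, which encodes the chymotrypsin-like subunit and the usual target of proteasome inhibitors, stood at 172 FPKM in KO and 303 FPKM in WT (-0.82, q = 0.000206 in the authors' deposited table). Psmb6, the caspase-like subunit gene, stood at 356 FPKM in KO and 591 FPKM in WT (-0.73, q = 0.000206 in the authors' deposited table). Of the 7, the noncatalytic Psmb3 was the most abundant in both conditions and fell least, with 625 FPKM in KO and 965 FPKM in WT (-0.63, q = 0.000206 in the authors' deposited table).

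The inducible and tissue-specific beta subunits did not move one way. Psmb10 had the largest fall of all 50 members, to 9.04 FPKM in KO, against 24.8 FPKM in WT (-1.45, q = 0.000206 in the authors' deposited table). In its decile by level, 0.214% of genes lay lower. Psmb9 was the only member called higher, with 7.13 FPKM in KO and 4.73 FPKM in WT, a 1.51-fold difference (0.59, q = 0.0201 in the authors' deposited table), and the call is lost at q under 0.01. Psmb8 stood at 2.06 FPKM in KO and 1.45 FPKM in WT, 1.42-fold apart (0.51, q = 0.1001 in the authors' deposited table), and did not pass. Psmb11, known from thymic epithelium, was near the lower end of the tested range, with 0.538 FPKM in KO and 0.611 FPKM in WT (-0.18, q = 0.547 in the authors' deposited table). The ratio of each inducible subunit to its constitutive counterpart is free of the scaling between conditions. Psmb9 was at 2.001% of the Psmb6 level in KO and 0.801% in WT, and Psmb8 at 1.199% of the Psmb5 level in KO and 0.478% in WT, both 2.5 times as high in KO. Psmb10 was at 2.29% of the Psmb7 level in KO and 3.07% in WT. Scarce genes as a whole were higher and abundant ones lower in KO: the median log2 fold change was 0.35 in the decile of Psmb8, 0.08 in that of Psmb9, -0.15 in that of Psmb10 and -0.72 in that of the constitutive genes. Within its decile Psmb8 lay above 59.4% of genes and Psmb9 above 82.3%. The ratios rest on 1 value per condition, and neither they nor the part of the trend with level in them was tested.

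**Figure D3:**
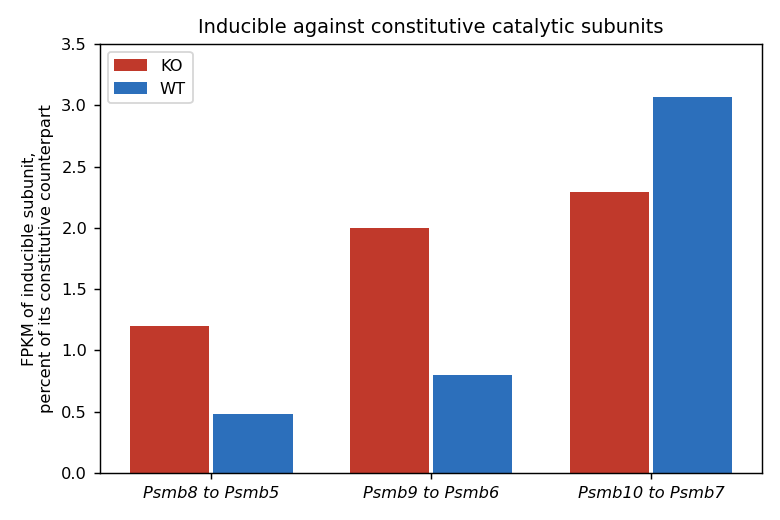
FPKM of the 3 inducible catalytic subunits as a percentage of their constitutive counterparts, with KO bars left of WT bars, 1 value per condition and no error. The ratio is higher in KO for Psmb8 (1.199%, and 0.478% in WT) and Psmb9 (2.001%, and 0.801% in WT) and lower in KO for Psmb10 (2.29%, and 3.07% in WT).

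Psmb9 and Psmb8 lie beside each other in the major histocompatibility complex, and the genes between and next to them were looked up after their values were seen. Psmb9 (chr17:34319043-34324275 on mm9), Tap1 (chr17:34324500-34334170), Psmb8 (chr17:34335139-34338399) and Tap2 (chr17:34341423-34353266) follow one another, and by the table's coordinates 225 bases separate Psmb9 from Tap1. Tap1 and Tap2 encode the transporter that carries proteasome products into the endoplasmic reticulum. Tap1 stood at 2.07 FPKM in KO and 0.458 FPKM in WT, a 4.51-fold rise (2.17, q = 0.000206 in the authors' deposited table). Tap2 stood at 1.41 FPKM in KO and 0.364 FPKM in WT, a 3.88-fold rise (1.96, q = 0.000206 in the authors' deposited table). In fold change both lay above Psmb9 (0.59) and the uncalled Psmb8 (0.51), at low levels in both conditions. Within 60 kb on either side, the authors' deposited table also called H2-DMa, a class II peptide-loading gene, higher (0.73) and the bromodomain gene Brd2 lower (-0.36, or 0.29 with equal totals), while H2-DMb1 and H2-DMb2 were not called and H2-Ob was not tested. Psmb10 lies on chromosome 8. In a list of 8 genes of class I antigen presentation, Tap1 and Tap2 were the only ones called higher and Irf1, an interferon-induced transcription factor gene, the only one called lower, with 31.3 FPKM in KO and 49.1 FPKM in WT (-0.65, q = 0.00056 in the authors' deposited table; 0.00355 with equal totals). The list is small, and over all tested genes 22.4% were called higher and 28.4% lower. Not called were B2m, H2-K1, H2-D1, Tapbp and Erap1.

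In the promoter windows, 250 bases before to 50 after the start, 42 of the 50 members had an entry in the RefSeq set, with 45 windows. Those without one were Psma8, Psmb1, Psmb2, Psmb7, Psmc3, Psmd3, Psmd7 and Psmg2. Motifs were searched on both strands. The antioxidant response element with an AP-1-like core, TGANTCAGC, which the proteasome regulator encoded by Nfe2l1 is known to bind, was in 2.22% of member windows and 1.19% of all 32851 windows. Its 1 member match was in Psmb5, where TGAATCAGC begins 42 bases after the start and so outside the run printed above. The CCAAT box was in 33.3% of member windows and 37.4% of all windows, and in Psmb9 it reads ATTGG, 8 bases before the start. The gamma-activated site TTCNNNGAA was in 6.67% of member windows and 8.30% of all, and Psmb8 holds one, TTCCCAGAA, that begins 97 bases before the start. The interferon-stimulated response element, searched as GAAANN followed by GAAA, was in 11.1% of member windows and 3.44% of all, in Psmb3, Psmd4, Psmd9, Psme1 and Psmg4. None of the 5 printed genes holds it, and Psmb6 and Psmb10 hold none of the 4 motifs in these windows. CCAAT and the other motifs did not overlap in the printed runs.

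The ATPases of the 19S cap fell as a block. All 6 of Psmc1 to Psmc6 were called lower in the authors' deposited table, with log2 fold changes from -1.08 to -0.78 and a median of -0.85. They all lie in the highest decile by level, where 76.6% of genes were called lower and the median was -0.72. The share called lower over all tested genes was 28.4%. Psmc6 fell furthest, to 164.5 FPKM in KO, against 348 FPKM in WT (-1.08, q = 0.000206 in the authors' deposited table), and Psmc3 least, to 130.04 FPKM in KO, against 223 FPKM in WT (-0.78, q = 0.000206 in the authors' deposited table). The 6 levels spanned 2.28-fold in KO and 2.31-fold in WT, and all 6 would stay below 0 with equal totals (median -0.20).

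The non-ATPase subunits of the cap spread more widely than the alpha, ATPase and assembly genes. Of the 14 Psmd genes, 11 were called lower and 3 not called in the authors' deposited table. The share called lower was 28.4% over all tested genes. It was 76.6% in the highest decile by level, which holds all 14 but Psmd9 and Psmd10. All 14 Psmd genes lay below 0, from -1.18 to -0.17, with a median of -0.59. With equal totals that median would be 0.06 and the 11 calls would split into 6 above and 5 below 0. Psmd6, a subunit of the lid that removes ubiquitin, fell furthest, to 120.04 FPKM in KO, against 271 FPKM in WT (-1.18, q = 0.000206 in the authors' deposited table). Psmd12, another lid subunit gene, stood at 206 FPKM in KO and 422 FPKM in WT (-1.03, q = 0.000206 in the authors' deposited table). Psmd14, which encodes the deubiquitinase of the lid, fell to 119 FPKM in KO, against 236 FPKM in WT (-0.99, q = 0.000206 in the authors' deposited table), while Psmd4, a ubiquitin receptor gene, stood at 188 FPKM in KO and 290.1 FPKM in WT (-0.62, q = 0.000206 in the authors' deposited table). The 3 genes not called differed by less. Psmd2, a large scaffold subunit gene of the base, stood at 227 FPKM in KO and 256 FPKM in WT (-0.17, q = 0.352 in the authors' deposited table). The lid subunit genes Psmd3 and Psmd11 stood at -0.21 (q = 0.253) and -0.23 (q = 0.195) in the authors' deposited table. Among genes of their decile by level, 87.5% to 89.7% lay below these 3. Psmd5, Psmd9 and Psmd10 are named as cap subunits but are known as chaperones of cap assembly, and were called lower, at -0.40, -0.57 and -0.61 in the authors' deposited table.

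**Figure D4:**
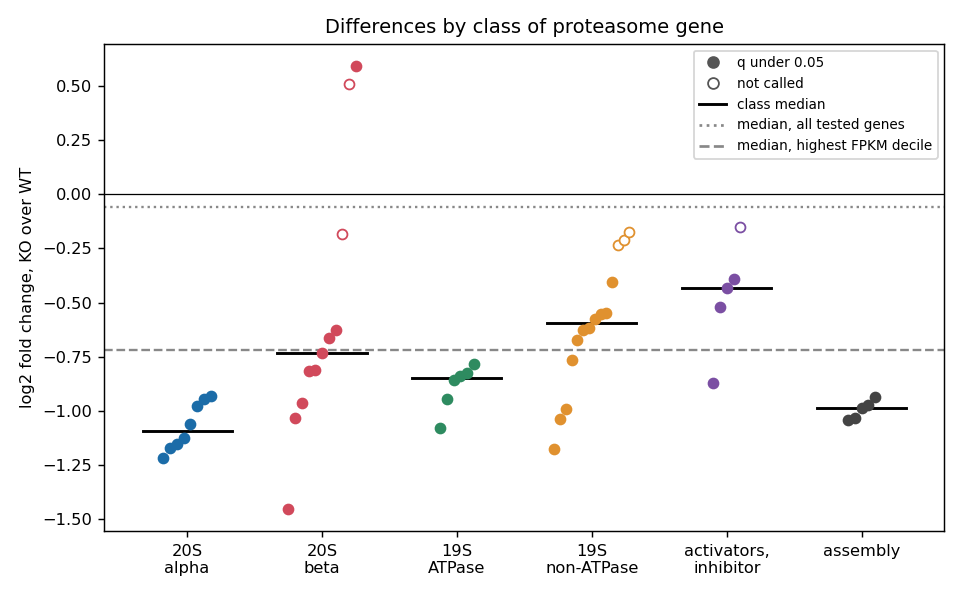
Log2 fold change of KO over WT for each gene by class, with filled circles for q under 0.05, open circles for genes not called and a black bar at the class median. Class medians run from -1.09 (20S alpha) to -0.43 (activators and inhibitor), and the dashed line marks the median of the highest decile by level (-0.72).

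Activators other than the 19S cap had the smallest median fall. The Psme genes and Psmf1, which encodes a regulator first described as an inhibitor, had a median of -0.43, with 4 of 5 called lower in the authors' deposited table. With equal totals the median would be 0.22 and 3 of these 4 would stand above 0. The share called lower was 28.4% over all tested genes. It was 76.6% in the highest decile by level, which holds Psme2 and Psme3. Psme2 fell furthest, to 68.2 FPKM in KO, against 124.6 FPKM in WT (-0.87, q = 0.000206 in the authors' deposited table). Its partner in the interferon-inducible ring activator, Psme1, stood at 60.2 FPKM in KO and 86.2 FPKM in WT (-0.52, q = 0.00387 in the authors' deposited table), so that Psme1 was at 88.3% of the Psme2 level in KO and 69.2% in WT. Psme3, which encodes the nuclear ring activator, stood at 122 FPKM in KO and 160.3 FPKM in WT (-0.39, q = 0.0225 in the authors' deposited table). Psme4, which encodes a large single-chain activator, was not called, with 72.2 FPKM in KO and 80.2 FPKM in WT (-0.15, q = 0.426 in the authors' deposited table). Psmf1 stood at 7.73 FPKM in KO and 10.4 FPKM in WT (-0.43, q = 0.0252 in the authors' deposited table).

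The assembly factors of the core fell within a narrow span. All 5 were called lower in the authors' deposited table, from -1.04 to -0.93, with a median of -0.99, and all 5 lay below the median of their decile by level, and below 0 with equal totals (median -0.33). The share called lower was 28.4% over all tested genes. It was 76.6% in the highest decile by level, which holds Pomp and Psmg1. Pomp, which encodes the maturation factor that joins the forming barrel, stood at 225 FPKM in KO and 464 FPKM in WT (-1.04, q = 0.000206 in the authors' deposited table). Psmg1 and Psmg2, whose products pair to build the alpha ring, stood at -1.03 and -0.93, and the second such pair, Psmg3 and Psmg4, at -0.99 and -0.97 in the authors' deposited table, all with q = 0.000206. Psmg3 was the least abundant of the 5, with 21.3 FPKM in KO and 42.2 FPKM in WT in the authors' deposited table. Psmc3ip, outside all classes, stood at 40.0 FPKM in KO and 61.7 FPKM in WT (-0.62, q = 0.0359 in the authors' deposited table). Differences between the classes were not tested, since genes are not replicates of a condition.

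Members with transcripts over 2000 nt were lowered less than shorter ones. Over the 50 members Spearman's rho between log2 fold change and the longest protein-coding transcript was 0.38, and over the 14 Psmd genes 0.78; over 13154 tested genes with a length it was 0.34. These are descriptions over genes that share the same libraries. The relation was not even over the range: the 7 members under 1000 nt had a median of -0.82, the 29 of 1000 to 2000 nt -0.93, and the 14 longer ones -0.42, with 9 called lower. Over all tested genes with a length, of any level, the medians were -0.48 under 1000 nt, -0.37 for 1000 to 2000 nt and 0.05 above 2000 nt. In the highest decile by level, tested genes had medians of -0.77, -0.78 and -0.64 in the same bands. Members in that decile had medians of -0.73, -0.94 and -0.48. The uncalled Psmd2 (2961 nt), Psmd11 (2848 nt), Psmd3 (2148 nt), Psme4 (6491 nt) and Psmb11 (4247 nt) are among the long members. So are Pomp (3850 nt), Psma3 (2846 nt) and Psmc6 (2234 nt), which fell at least 2-fold. The part of length in these differences was not tested.

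**Figure D5:**
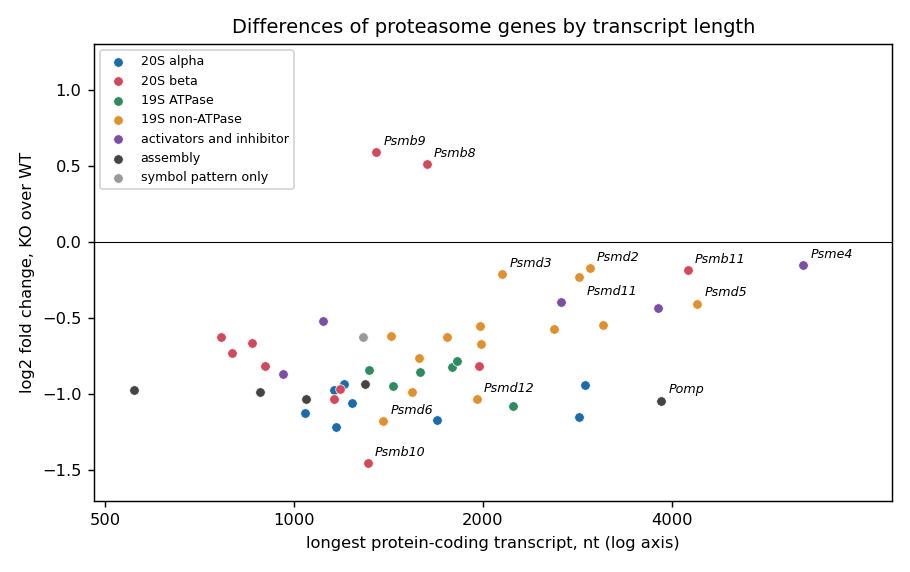
Log2 fold change of KO over WT against the longest protein-coding transcript (log axis) for the 50 proteasome genes, coloured by class. Members not called, such as Psmd2 and Psme4, lie mostly to the right, and Psmb9 and Psmb8 stand above 0.

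Genes that work with the proteasome were read from lists. Of 7 further proteasome-bound factors, 6 were called lower and none higher in the authors' deposited table, with a median of -0.68 (-0.02 with equal totals). Uchl5, a deubiquitinase gene of the cap, fell to 65.6 FPKM in KO, against 176 FPKM in WT (-1.42, q = 0.000206 in the authors' deposited table). Txnl1, a cap-bound thioredoxin-like gene, stood at 56.98 FPKM in KO and 123 FPKM in WT (-1.11, q = 0.000206 in the authors' deposited table). Of 12 genes of substrate unfolding and delivery, 6 were lower and none higher, with a median of -0.43 (0.23 with equal totals), led by Zfand5 (-0.75) and Nsfl1c (-0.71) in the authors' deposited table. Beside these counts, 28.4% of all tested genes were called lower and 22.4% higher. In the highest decile by level, which holds some genes of both lists, 76.6% were called lower.

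Regulators of proteasome genes, listed together with the proteasome import gene Akirin2, went in both directions. Of these 8 listed genes, 4 were called lower, 1 higher and 3 not called, beside 28.4% lower and 22.4% higher over all tested genes. Their median was -0.33 (0.32 with equal totals, where 3 of the 5 calls would stand above and 2 below 0). Nfe2l1 encodes a transcription factor that raises proteasome genes when proteasome activity is low. It stood at 56.7 FPKM in KO and 49.5 FPKM in WT (0.20, q = 0.294 in the authors' deposited table), not called. Ddi2, the protease gene whose product activates it, was called higher, with 17.6 FPKM in KO and 11.5 FPKM in WT (0.61, q = 0.0157 in the authors' deposited table). The falls were led by the CCAAT-binding factor gene Nfyc (-0.83) and by Akirin2 (-0.76), known in human cells for nuclear import of proteasomes, in the authors' deposited table.

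Other large complexes of abundant subunits gave similar values. All 9 genes of the COP9 signalosome, a relative of the proteasome lid, were called lower in the authors' deposited table, with a median of -0.69 (-0.04 with equal totals), led by Cops5 (-1.15) and Cops4 (-0.93). All 8 genes of the chaperonin TRiC, which folds cytosolic proteins, were called lower with a median of -0.88 (-0.23 with equal totals), from -0.99 (Cct4) to -0.65 in the authors' deposited table. Over all tested genes 28.4% were called lower. All TRiC genes and all COP9 genes but Cops7b lie in the highest decile by level, where 76.6% were called lower and the median was -0.72. The medians of both complexes lie within the span of the proteasome classes, and no difference from those classes was tested.

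The targeted gene and the cell identity were read from the same table. Alkbh1 stood at 18.1 FPKM in KO and 33.9 FPKM in WT (-0.90, q = 0.0943 in the authors' deposited table), which did not pass the threshold. With equal totals Alkbh1 would stand at -0.25, and the median of its decile by level was -0.34 as deposited. The labels do not name the deleted part of the gene. The ES cell gene Pou5f1 had 716 FPKM in KO and 1222 FPKM in WT in the authors' deposited table, and 6 of 7 tested ES cell markers were called lower, with a median of -0.76 in the authors' deposited table, beside 76.6% called lower and a median of -0.72 in the highest decile by level. With equal totals the markers' median would be -0.11, with 2 calls above and 4 below 0. Of 8 markers of fibroblasts, the usual feeder cells, 6 were tested, with 4 called higher (Col1a1, Fn1, Pdgfrb and Thy1) and 2 lower (Vim and Acta2) and a median of 0.64 (1.29 with equal totals). Over all tested genes 22.4% were called higher and 28.4% lower. Col1a1, Pdgfrb and Acta2 lie in the lowest decile by level, whose median was 0.69. Fn1 and Vim lie in a decile with a median of -0.51, and Thy1 in one with a median of -0.03. In the authors' deposited table the 6 tested fibroblast markers summed to 119 FPKM in KO and 121 FPKM in WT, and the untested Col3a1 had 0.0131 FPKM in KO and was listed at 0 in WT. The part of these markers in the proteasome values was not tested.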

How the data were processed

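Messenger RNA libraries of 4 KO and 2 WT samples were made with a strand-specific kit, per the labels' protocols. Reads were aligned with TopHat2 on mm9, per the submitters' processing notes; versions, the annotation, strand use in counting and scaling between libraries are not given in the sources used here. By its columns, the deposited table has a Cuffdiff layout, per the file headers, and holds the authors' FPKM for each condition. Its log2 fold change, p-value and q-value are the authors' own, as is the deposited test statistic (a score), which was not used in the text. The smallest p was 5e-05, shared by 3418 genes. Recomputing the Benjamini-Hochberg adjustment (14095 genes) matched the deposited q to within 5.18e-07.

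No test was run anew. Genes were called at q under 0.05. Tested genes listed at 0 in 1 condition (56) were left out of medians. Deciles used the mean of KO and WT FPKM. Psma3, Psma4, Psmb5, Psmc3ip, Psmd1 and Psme1 share their table region with another gene, so their values are uncertain. Lengths are those of the longest protein-coding GENCODE M21 transcript by symbol or synonym, found for 93.3% of tested genes and all 50 members. Coordinates are those of the table (mm9) except for promoters (GRCm38.p6). Members and lists were chosen with earlier results of these data known, and 1 list and a gene of another are not reported here; motifs, neighbours and length bands were chosen after the values were seen. Every member could be named; of other lists the genes named were those called higher and up to 2 with the largest fall, plus Nfe2l1 and Alkbh1; further genes were named for small counts, for the check of cell identity, or as neighbours. Alternatives covered thresholds, adjustment, leaving out genes under the 25th percentile of level, shared regions, Psmc3ip, a pseudocount of 1 and equal totals. Python 3.11.15, NumPy 2.4.6, pandas 2.3.3, SciPy 1.17.1 and matplotlib 3.10.9 were used, and the adjustment was tested on simulated data.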

Additional observations from a re-analysis of the deposited data

How the results depend on the processing

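The count of 43 members called lower stayed within 1.5 times under other q thresholds, the recomputed adjustment and the exclusions of genes. Demanding at least a 2-fold difference left 12 lower and 0 higher. For equal totals the deposited q-values were kept and not recomputed, so no new count of calls was made. Of the deposited calls in either direction, 32 then lay below 0 and 12 above. Psmb9, the 1 call higher, was lost at q under 0.01 (0 higher). The median log2 fold change of -0.82 was -0.83 with genes under the 25th percentile of level left out, -0.83 without members of a shared region, -0.73 as a mean and -0.17 with equal totals. With equal totals, 13 of 84 genes checked singly were called lower and turned above 0: Psmb3 to 0.0265, Psmc3ip to 0.0283, Psmd1 to 0.11, Psmd4 to 0.0288, Psmd5 to 0.25, Psmd8 to 0.10, Psmd9 to 0.0784, Psmd10 to 0.0381, Psme1 to 0.13, Psme3 to 0.26, Psmf1 to 0.22, Irf1 to 0.00355 and Brd2 to 0.29. A pseudocount of 1 reversed none of the 84. Moving Psmd5, Psmd9 and Psmd10 to the assembly class, chosen after seeing the data, gave medians of -0.95 for that class and -0.62 for the rest of the Psmd genes. No paired analysis was possible because the table has 1 value per condition, and for the same reason no library could be left out.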
